A study of Mus musculus with 15 samples.

Results

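A line of NIH3T3 cells carrying human RUNX1 was set against a line of the same cells carrying its mouse counterpart, Runx1. The lines were chosen by their titles, and they gave 3 of the 15 arrays of the series: 1 array titled as human RUNX1 and 2 arrays titled as mouse Runx1. NIH3T3 is an immortalised line of mouse fibroblasts. All cultures had been transduced with the retroviral vector pBabe-puro, which in these 2 lines carried human RUNX1 or mouse Runx1 under constitutive expression, and expression was read on Affymetrix arrays as log2 values, in which 1 unit is a 2-fold difference. The other groups, with 2 arrays each, were constitutive Runx2, constitutive Runx3, RUNX1-ER (human RUNX1 in an inducible form) with and without induction by 4-hydroxytamoxifen (4-OHT), and empty vector with and without 4-OHT. Every culture was confluent at 7 days and had 0.2% ethanol, alone or with 4-OHT (0.1 mM as labelled), for 24 h. The labels do not say which of these the constitutive lines had, nor whether a line was a pool or a clone.

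RUNX1 and its paralogues RUNX2 and RUNX3 are transcription factors that bind DNA through a conserved Runt domain, and they bind it more tightly with their partner CBFβ. They can activate or repress a gene, depending on the promoter and on the cofactors present. RUNX1 is best known for its need in the formation of blood stem cells and for its rearrangement in leukaemia, RUNX2 for bone formation and RUNX3 for neurons of the sensory ganglia and for T cells.

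The human RUNX1 array is alone in its group. Its own spread was therefore not measured, and limma took the spread from the other groups, so each p-value assumes that a human RUNX1 array varies like the arrays of the other lines. The species of the inserted gene, its level, the line and the single array cannot be told apart in this design. The Runx1 arrays are titled as biological replicates, but the labels name no separate cultures or transductions, so their spread, and any p-value built on it, may be technical.

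The array of the human RUNX1 line differed from the others in its distribution. Its 75th percentile over probe sets was 5.482 log2 units, the lowest of the 15 arrays, against 5.682 and 5.659 on the mouse Runx1 arrays and 5.555 to 5.707 over all 14 other arrays. For the transferrin receptor control, the 3′ probe set exceeded the 5′ one by 0.50 log2 units on the human RUNX1 array, the smallest gap of the 15, against 0.80 and 0.93 on the mouse Runx1 arrays, while the Gapdh gap was -0.02 in the human RUNX1 line and -0.02 and -0.01 in the mouse Runx1 line. All 10 fibroblast markers lay above the array median in both lines, and their summed level was 15.4 log2 units with human RUNX1 and 15.4 and 15.5 with mouse Runx1. Of the markers of other cell types, the epithelial Krt8 and the adipocyte Cidec were called, both higher with human RUNX1, with summed list levels of 6.79 against 6.44 and 6.40 (5 genes) and of 5.04 against 4.96 and 4.96 (3 genes). No endothelial, leukocyte, muscle or neural marker was called, and the part of these cells in any result was not tested. Over genes, the SD of the difference between the human RUNX1 array and a mouse Runx1 array was 0.286 and 0.281 log2 units, against 0.183 between the mouse Runx1 arrays.

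The labels were first checked through the probe sets for mouse Runx1, a gene on chromosome 16 (92601466 to 92826074, GRCm38.p6). The probe set used for the gene, its brightest, read 4.69 log2 units in the human RUNX1 line, against 9.11 and 9.30 in the mouse Runx1 line and 4.56 and 4.75 with empty vector. The human RUNX1 array lay between the vector arrays, and the mouse Runx1 line was far above them. The log2 difference, human RUNX1 minus mouse Runx1, was -4.52 (SE 0.14, limma adjusted p = 3.77e-09). A further probe set gave 4.36 in the human RUNX1 line, against 7.25 and 7.21 in the mouse Runx1 line.

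None of the remaining 4 Runx1 probe sets was higher with mouse Runx1 than with vector, and their differences, human RUNX1 minus mouse Runx1, ran from -0.40 to 0.14 with no call. Whether any mouse probe set can read the human transcript was not tested, so the level of the human RUNX1 transgene is not known from these arrays. Among these 4, a single probe set was called against vector, at 4.09 with human RUNX1 and 4.08 and 4.21 with mouse Runx1, against 4.72 and 4.92 with vector. Its log2 change from vector was -0.73 in the human RUNX1 line (limma adjusted p = 0.0206, over probe sets) and -0.68 in the mouse Runx1 line (adjusted p = 0.0238). Cbfb, which encodes the partner of all RUNX proteins, read 9.48 in the human RUNX1 line and 9.49 and 9.48 in the mouse Runx1 line (difference -0.01, 95% interval -0.23 to 0.22, limma adjusted p = 0.988). Runx3 read 4.17 with human RUNX1 and 4.39 and 4.26 with mouse Runx1 (limma adjusted p = 0.716).

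**Figure D1:**
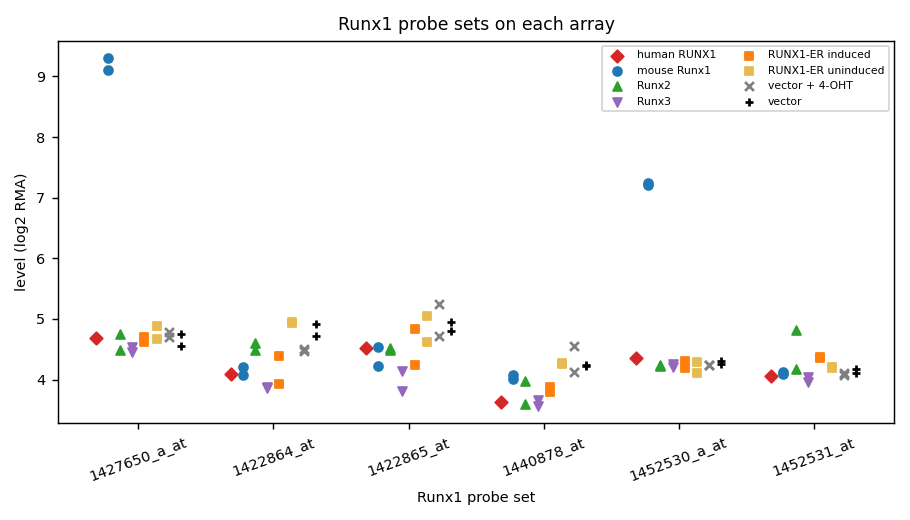
Log2 RMA level (vertical axis) of each Runx1 probe set (horizontal axis), 1 point per array, coloured by line and ordered from human RUNX1 to vector within a probe set. The leftmost and the fifth probe set stand high in the mouse Runx1 line (9.11 and 9.30, and 7.25 and 7.21), while the human RUNX1 array lies at 4.69 and 4.36, near vector.

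Runx proteins recognise a short DNA motif, so 3 promoters are shown: those of Ifitm1 and Timp4, among the genes that differed most, and the distal promoter of Runx1 itself. Each runs from 250 bases before to 50 bases after a listed start of the gene, 5′ to 3′ on the gene's strand. Starts and sequences are from RefSeq on GRCm38.p6. The Ifitm1 window lies within the gene (140967429 to 140969827) and does not reach its first base. Capitals mark the letters TGTGGT or, for the other strand, ACCACA.
Ifitm1, chr7:140967826-140968125, plus strand: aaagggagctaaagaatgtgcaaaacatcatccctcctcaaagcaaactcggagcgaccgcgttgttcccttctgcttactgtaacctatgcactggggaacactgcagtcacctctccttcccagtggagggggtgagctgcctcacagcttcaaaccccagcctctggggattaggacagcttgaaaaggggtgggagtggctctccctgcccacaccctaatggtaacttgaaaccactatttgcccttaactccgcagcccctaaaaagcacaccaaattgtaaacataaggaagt
Timp4, chr6:115252156-115252455, minus strand: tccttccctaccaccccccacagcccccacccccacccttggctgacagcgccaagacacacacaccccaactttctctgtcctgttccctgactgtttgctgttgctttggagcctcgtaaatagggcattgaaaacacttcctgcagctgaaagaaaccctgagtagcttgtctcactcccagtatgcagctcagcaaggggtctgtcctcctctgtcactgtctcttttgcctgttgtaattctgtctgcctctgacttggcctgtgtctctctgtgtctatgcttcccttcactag
Runx1 distal promoter, chr16:92826025-92826324, minus strand: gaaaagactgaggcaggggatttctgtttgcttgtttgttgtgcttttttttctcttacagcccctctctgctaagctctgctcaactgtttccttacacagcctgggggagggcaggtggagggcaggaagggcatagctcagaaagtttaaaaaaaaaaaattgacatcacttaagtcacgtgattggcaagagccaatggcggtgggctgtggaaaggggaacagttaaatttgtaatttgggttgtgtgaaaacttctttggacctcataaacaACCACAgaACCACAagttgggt
The Runx1 distal promoter held the letters at 2 places, beginning 28 and 36 bases after the start base. Neither the Ifitm1 nor the Timp4 window held them, which says only that these 6 letters are absent from that stretch. Of the 24 genes named for the comparison, 17 had a promoter in the table, with 22 promoters in all. Only 1 promoter, the distal one of Runx1, held the motif, so no promoter of another named gene did. The letters were in 13.8% of the 246 promoters of genes called higher in the human RUNX1 line and 11.7% of the 547 promoters of genes called lower, against 13.7% of the 18109 promoters of all genes tested and 16.8% of the 32851 promoters in the table.

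Across 18193 genes, 726 (3.99%) differed between the human RUNX1 and the mouse Runx1 lines at a limma adjusted p under 0.05, and 3331 did so at an unadjusted p under 0.05. Of the calls, 218 (1.2% of genes) were higher and 508 (2.79%) were lower in the human RUNX1 line, and 28 and 52 of them passed 2-fold. This balance depended on the scaling of the arrays. When quantile normalization was repeated, 480 genes were called, 281 higher and 199 lower, so the share of higher calls was 58.5%, against 30% before. Of the 218 higher calls 209 were also called then, and of the 508 lower calls 199. The counts also rested on both mouse Runx1 arrays, with 265 calls without replicate 1 and 258 without replicate 2.

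The lower calls lay mostly among genes of middle level. Among the 3811 genes with a mean of 5 to 7 log2 units, 292 were lower and 37 higher in the human RUNX1 line, and the median difference of all these genes was -0.16. Among the 7654 genes with a mean up to 4, near the floor of the arrays, 131 were higher and 25 lower, with a median difference of 0.00175. After the repeated quantile normalization the 5 to 7 class had 66 higher and 98 lower calls.

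**Figure D2:**
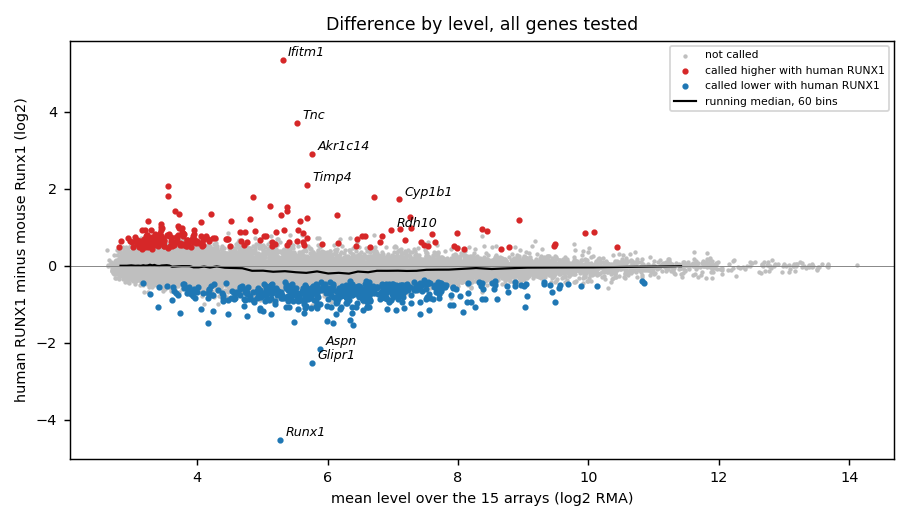
Log2 difference, human RUNX1 minus mouse Runx1, against the mean log2 level over the 15 arrays, 1 point per gene, with genes called higher with human RUNX1 in red, those called lower in blue and the running median as a black line. The cloud dips below 0 between 5 and 7 log2 units, where the median difference is -0.16, and Ifitm1 and Runx1 lie farthest from 0 at 5.36 and -4.52.

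Ifitm1, an interferon-induced membrane protein, differed most among the genes that were higher with human RUNX1. It read 9.65 log2 units in the human RUNX1 line, against 4.13 and 4.46 in the mouse Runx1 line and 3.59 and 3.72 with vector. The difference between the lines was 5.36 (SE 0.24, 41.0-fold, limma adjusted p = 9.63e-08). Against vector, Ifitm1 was higher by 6.00 with human RUNX1, and its difference with mouse Runx1 was 0.64 (adjusted p = 0.18). The Runx2 and Runx3 lines also had high Ifitm1, at 6.77 and 7.14 and at 8.38 and 7.72. For this gene the mouse Runx1 line lay nearer to vector than any other constitutive line. The RUNX1-ER cells, induced or not, stayed between 3.79 and 4.39.

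Tnc, Timp4 and Ccn5, genes of the extracellular matrix, were also higher. Tnc, which encodes the matrix glycoprotein tenascin C, read 7.95 with human RUNX1 and 4.25 and 4.20 with mouse Runx1, against 4.81 and 4.69 with vector. The difference between the lines was 3.72 (SE 0.16, 13.2-fold, limma adjusted p = 7.6e-08), while another Tnc probe set differed by -0.01. Timp4, an inhibitor of matrix metalloproteinases, read 7.33 with human RUNX1, against 5.15 and 5.31 with mouse Runx1 (difference 2.10, SE 0.19, adjusted p = 0.000161). Its second probe set gave 8.09, against 4.86 and 4.22. Ccn5, a secreted matricellular protein, read 6.11 with human RUNX1, against 4.28 and 4.85 with mouse Runx1 (difference 1.55, adjusted p = 0.00832).

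Enzymes made up a further group. Akr1c14, a steroid-metabolising aldo-keto reductase, read 7.23 with human RUNX1, against 4.64 and 4.00 with mouse Runx1 and 4.26 and 4.20 with vector. Its difference was 2.91 (SE 0.27, 7.51-fold, limma adjusted p = 0.000161), and the Runx2, Runx3 and induced RUNX1-ER arrays all lay between 7.02 and 8.05. Cyp1b1, a cytochrome P450 that oxidises steroids and foreign compounds, read 8.73 with human RUNX1, against 6.94 and 7.06 with mouse Runx1 and 5.65 and 5.76 with vector. Both lines were above vector, by 3.02 with human RUNX1 and 1.29 with mouse Runx1, and the lines differed by 1.73 (adjusted p = 4.79e-06), or by 1.05 in the mean of the gene's probe sets. Vnn1, a pantetheinase, read 5.29 with human RUNX1, against 3.45 and 3.50 with mouse Runx1 (difference 1.81, adjusted p = 0.000192).

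Orm1 and Hp, which encode the plasma proteins orosomucoid and haptoglobin, were also higher with human RUNX1. Orm1 read 5.09 with human RUNX1, against 3.02 on both mouse Runx1 arrays (difference 2.06, limma adjusted p = 0.000443). Hp read 5.88, against 3.90 and 4.29 (difference 1.79, adjusted p = 0.00384), and was higher still in the Runx2 line at 7.91 and 7.72. Elmo1, which acts with Dock proteins to activate the small GTPase Rac, read 6.21 with human RUNX1, against 4.65 and 4.72 with mouse Runx1 (difference 1.52, adjusted p = 2.38e-05), while its other probe sets differed by 0.32 and 0.04 and were not called. Rasl11b, a small Ras-like GTPase, read 6.31, against 4.84 and 4.93 (difference 1.43, adjusted p = 0.00118). Zscan2, a zinc finger protein, read 4.96, against 3.52 and 3.53 (difference 1.43, adjusted p = 0.00637), and every one of the other 12 arrays had 3.30 to 4.08.

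**Figure D3:**
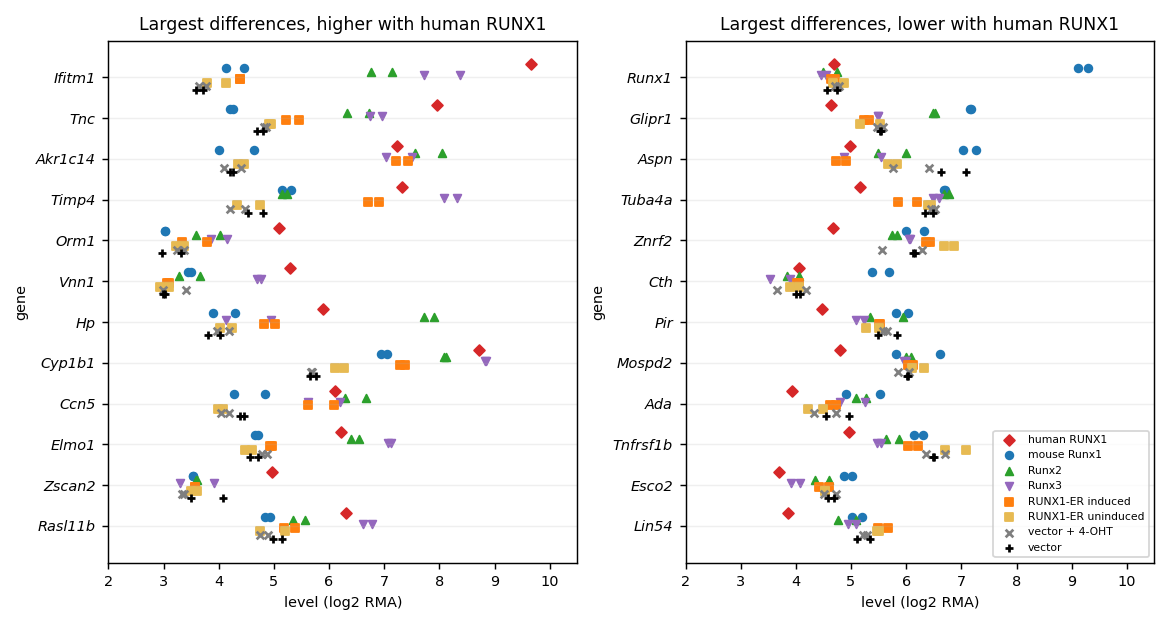
Log2 RMA level of the 24 genes named for the largest differences between the lines, 1 point per array, with genes higher in the human RUNX1 line at left and lower at right. The human RUNX1 diamond for Ifitm1 lies at 9.65, with the mouse Runx1 circles at 4.13 and 4.46, and for Glipr1 the diamond lies at 4.64 and the circles at 7.15 and 7.17.

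Among the genes that were lower with human RUNX1, Glipr1, a protein of the CAP family, came next after Runx1. It read 4.64 log2 units with human RUNX1, against 7.15 and 7.17 with mouse Runx1 and 5.54 and 5.52 with vector. The lines moved to opposite sides of vector. Its log2 change from vector was -0.89 in the human RUNX1 line (limma adjusted p = 0.00163) and 1.63 in the mouse Runx1 line (adjusted p = 3.63e-06). The difference between the lines was -2.52 (SE 0.13, 5.73-fold lower, adjusted p = 5.01e-07), while another Glipr1 probe set differed by -0.41 and was not called.

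Aspn, which encodes the matrix proteoglycan asporin, was low with human RUNX1 and not with mouse Runx1. It read 4.98 with human RUNX1, against 7.27 and 7.02 with mouse Runx1 and 7.08 and 6.63 with vector (difference -2.16, SE 0.31, limma adjusted p = 0.00299). Its change from vector was -1.87 with human RUNX1 (adjusted p = 0.0032) and 0.29 with mouse Runx1 (adjusted p = 0.831), and the induced RUNX1-ER arrays had 4.91 and 4.74. Cth, which encodes cystathionine gamma-lyase of cysteine synthesis, showed another order: 4.06 with human RUNX1, against 5.38 and 5.69 with mouse Runx1 and 4.07 and 4.01 with vector. Here the human RUNX1 line was 0.01 from vector, mouse Runx1 was higher than vector by 1.49 (adjusted p = 0.000413), and the lines differed by -1.48 (adjusted p = 0.00295).

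The rest of the lower genes came from several roles. Tuba4a, an alpha-tubulin, read 5.17 with human RUNX1, against 6.69 and 6.71 with mouse Runx1 (difference -1.53, limma adjusted p = 0.000131). Tnfrsf1b, a receptor for tumour necrosis factor, read 4.97, against 6.15 and 6.31 (difference -1.26). Ada, which deaminates adenosine, read 3.93, against 4.91 and 5.53 (difference -1.30, adjusted p = 0.0201), and without mouse Runx1 replicate 2 its adjusted p was 0.0969. The cell cycle genes Esco2, an acetyltransferase of cohesin, and Lin54, a subunit of the DREAM complex, both differed by -1.25, at 3.69 against 5.01 and 4.88 and at 3.86 against 5.20 and 5.02. Pir, a nuclear iron-binding protein, differed by -1.46 and Mospd2, a protein of endoplasmic reticulum contact sites, by -1.42. Znrf2, a ubiquitin ligase, differed by -1.49 (adjusted p = 0.00353), but the mean of its probe sets by only -0.31 (adjusted p = 0.185). The mean of the probe sets also gave smaller, still called differences for Tuba4a (-0.73), Tnfrsf1b (-0.70), Mospd2 (-0.75) and Lin54 (-0.60). More than 1 probe set was present for 14 of the 24 named genes, and for 6 of the 14 a second one was called in the same direction.

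To see which line departed from the rest, each level was placed against the range of the 12 arrays of the other groups. Of the 218 genes called higher in the human RUNX1 line, 171 (78.4%) had the human RUNX1 array outside that range and not both mouse Runx1 arrays, 5 had only the mouse Runx1 arrays outside, and 13 had both lines outside. Of the 508 called lower, the numbers were 353 (69.5%), 37 and 37. Over all genes 25.3% had the human RUNX1 array alone outside and 2.48% the mouse Runx1 arrays, a single array being outside a range more often than a pair. These positions use the same arrays as the calls and are a description.

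Set against vector, which both lines share as a control, the human RUNX1 line had 1333 calls (7.33%), 398 higher (2.19%) and 935 lower (5.14%), and the mouse Runx1 line 309 (1.7%), 177 higher (0.973%) and 132 lower (0.726%). With quantile normalization repeated the human RUNX1 line had 1050 calls, 566 higher and 484 lower, so its excess of lower calls depends on the scaling, and the mouse Runx1 line had 337, 195 higher and 142 lower. The first comparison rests on 1 array of the line and the second on 2. Rdh10, a retinol dehydrogenase that starts retinoic acid synthesis, read 8.70 with human RUNX1 and 7.76 and 7.79 with mouse Runx1, against 5.56 and 5.20 with vector. It was higher than vector by 3.32 and 2.39, and the lines differed by 0.93 (limma adjusted p = 0.00432). Mfap5, a protein of elastic microfibrils, read 8.95 with human RUNX1 and 7.72 and 7.63 with mouse Runx1, against 6.10 and 6.12 with vector, and the lines differed by 1.27 (adjusted p = 0.000275). Ugcg, which makes glucosylceramide, was higher than vector by 2.39 with human RUNX1 and 1.41 with mouse Runx1, and Emilin1, an elastic fibre glycoprotein, by 2.48 and 1.66.

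Several genes fell in both lines. Rgs2, a regulator of G protein signalling, was lower than vector, by log2 changes of -2.30 with human RUNX1 and -1.57 with mouse Runx1, and the lines differed by -0.73 (limma adjusted p = 0.024, and 0.0649 with quantile normalization repeated). Id2, an inhibitor of helix-loop-helix factors, changed by -2.28 and -1.68, and its difference of -0.60 likewise had an adjusted p of 0.0258, against 0.0664 with that normalization. Other Rgs2 probe sets differed by -1.12 and -1.19, both called over probe sets at the scaling as deposited. A further one, near the floor, differed by -0.20 and was not called. Pde8b, a cyclic AMP phosphodiesterase, changed by -2.11 with human RUNX1 and -0.89 with mouse Runx1 and differed between the lines by -1.22 (adjusted p = 0.00157). Cebpd, a C/EBP transcription factor, changed by -1.86 and -0.99, a difference of -0.87 (adjusted p = 0.00819). Cdsn, corneodesmosin of cell adhesion in the skin, changed by -1.99 and -1.13 and differed by -0.86 (adjusted p = 0.0138), and Phlda1, a pleckstrin homology protein, changed by -1.88 and -0.96 and differed by -0.92 (adjusted p = 0.0369, and 0.0808 with quantile normalization repeated).

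Other genes with large changes from vector showed no called difference between the lines. The neuropeptide gene Vip changed by -2.58 with human RUNX1 and -1.92 with mouse Runx1 (difference -0.66, 95% interval -1.10 to -0.23, limma adjusted p = 0.0877). Ptgfr, the prostaglandin F receptor, changed by -1.53 and -1.95 (difference 0.42, interval 0.06 to 0.78, adjusted p = 0.193), and Ptx3, a pentraxin of innate immunity, by -1.09 and -1.40 (difference 0.31, interval 0.04 to 0.59). Rnf144a, a ubiquitin ligase, changed by -1.78 and -1.39 (difference -0.38, interval -0.80 to 0.04). Egln3, an oxygen-sensing prolyl hydroxylase, read 6.35 with human RUNX1 and 5.96 and 5.92 with mouse Runx1, against 7.26 and 7.45 with vector (difference 0.41, interval -0.05 to 0.88). Trim30d read 3.39 with human RUNX1 and 3.71 and 4.02 with mouse Runx1, against 5.49 and 5.28 with vector (difference -0.48, adjusted p = 0.295). Rgcc, a regulator of the cell cycle, was higher than vector by 2.48 with human RUNX1 and 1.68 with mouse Runx1 (difference 0.80, adjusted p = 0.0927). Nr4a1, a nuclear receptor of the immediate early response, varied between the vector arrays (10.39 and 8.71) and read 6.86 with human RUNX1 and 7.77 and 7.63 with mouse Runx1 (difference -0.84, interval -2.38 to 0.69). Gadd45a, a stress-response gene, was 6.50 with human RUNX1 and 7.05 and 7.00 with mouse Runx1, against 5.37 and 5.22 with vector (difference -0.52, adjusted p = 0.619).

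Cp, which encodes the copper-carrying ferroxidase ceruloplasmin, was high in both lines and in no other group. It read 6.67 with human RUNX1 and 6.57 and 6.37 with mouse Runx1, while the other 12 arrays had 3.71 to 4.35. The lines differed by 0.20 (95% interval -0.26 to 0.67, limma adjusted p = 0.697), and they were higher than vector by 2.65 with human RUNX1 and 2.45 with mouse Runx1. These values are from the brightest Cp probe set. In 3 others the change from vector was 1.005 to 1.13 with human RUNX1 and 1.57 to 1.68 with mouse Runx1, all called, and the lines differed by -0.55 to -0.57, with limma adjusted p over probe sets from 0.0543 to 0.212. It was 1 of 5 genes, a set chosen after their values were seen, for which all 3 arrays lay at least 0.5 log2 units above the other 12. The other 4 were Tmem86a (7.70 with human RUNX1 and 7.33 and 7.45 with mouse Runx1, against at most 6.54), Tmem218, Snai2, a zinc finger repressor of epithelial genes (9.48 with human RUNX1 and 9.73 and 9.53 with mouse Runx1, against at most 8.92), and Itgbl1. No gene lay as far below. In all, 139 genes (0.764%) had these 3 arrays above the other 12 and 145 (0.797%) below.

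Gene groups were described by 26 lists, with 3.99% of all genes called, or 2.64% with quantile normalization repeated. The lists were chosen with earlier results of these data known. A share above that of all genes is therefore a description and gives no support to a list. In the acute phase and complement list, 4 of 23 measured genes were higher with human RUNX1 and none lower: Orm1, Vnn1, Hp and C1ra (0.61), a complement protease. Of 26 retinoid and aldo-keto genes, 3 were higher and none lower, namely Akr1c14, Rdh10 and Rarres1. Rarres1 lay close to the floor, at 3.95 log2 units with human RUNX1. Of 27 genes known as Runx targets in blood cells 4 were higher, namely the cytokines Il3, Ccl3 and Csf2 and the adaptor Lmo2, all at 4.15 log2 units or less with human RUNX1, close to the floor. Of 26 osteoblast and chondrocyte genes 3 were higher, led by the calcification inhibitor Mgp (0.95). Mgp changed from vector by 0.35 with human RUNX1 and -0.60 with mouse Runx1. Over probe sets neither change was called, that with mouse Runx1 narrowly (limma adjusted p = 0.0509). The others, Ibsp and Alpl, lay close to the floor, at 3.89 and 4.20 with human RUNX1. Of 32 interferon-stimulated genes 2 were higher, Ifitm1 and Isg20. The median difference of this interferon list was -0.10, with the other 30 measured genes not called. Among 31 chemokines and cytokines, the receptor Ccr7 (1.36) and Csf2 were higher and Ccl7 (-0.81) lower, the last not after quantile normalization was repeated.

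The matrix and adhesion lists went both ways. Of 35 elastic fibre, matricellular and proteoglycan genes, Tnc, Ccn5, Mfap5 and Emilin1 were higher with human RUNX1, and Aspn, Ccn1 and Ccn2 were lower. Among 28 collagens, Col18a1 (1.33) and Col5a1 (0.86) were higher and Col4a1 (-0.76) and Col8a1 (-1.07) lower. Of 28 metalloproteinases and inhibitors, Timp4 and Adamts4 were higher and Timp2 lower. Of 29 integrin and focal adhesion genes, Sdc1, a heparan sulphate proteoglycan, was higher by 1.19, and Itga6 and Tns1 were lower. Among 33 cadherins, adhesion molecules and EMT factors, Snai1 was higher and 3 genes lower, of which 1 was called after quantile normalization was repeated, and the 46 Wnt and guidance genes had 4 higher and 1 lower.

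Growth factor feedback and immediate early genes had the lowest median. Of 34, 7 were lower with human RUNX1 and none higher, with a median difference of -0.31, against -0.05 over all genes. With quantile normalization repeated 5 were lower and 1 higher, and the median was -0.26. Called under both scalings were the transcription factors Klf4 (-1.21) and Maff (-1.03) and the phosphatases Dusp6 (-1.15), Dusp1 (-0.80) and Dusp14 (-0.75), which switch off MAP kinases. A further such phosphatase, Dusp5 (-1.04, limma adjusted p = 0.0453), was not called after the repeated normalization (adjusted p = 0.0555). Dusp4 (-0.72) was lost there as well. Dusp6 read 6.62 with human RUNX1, against 7.82 and 7.71 with mouse Runx1. Of the 31 genes of amino acid supply and the unfolded protein response 6 were lower and none higher at the scaling as deposited. Cth, Trib3 (-1.03) and Dnajb9 (-0.85) were among the 5 called lower with quantile normalization repeated, while Chac1 (-1.14, limma adjusted p = 0.047) was lost there (adjusted p = 0.0767). Cth, Trib3 and Chac1 are targets of the stress-responsive transcription factor ATF4. Trib3 read 7.98 with human RUNX1, against 9.05 and 8.97 with mouse Runx1 and 7.99 and 7.96 with vector. Another Trib3 probe set differed by -0.84 and was not called. Dnajb9 lay close to the floor, at 3.57 with human RUNX1. Chac1 lay above vector by 0.70 with human RUNX1 and by 1.84 with mouse Runx1. Against vector, 8 genes of this list were higher and none lower with mouse Runx1 (1.7% of all genes called). With human RUNX1, 1 was higher and 3 were lower (7.33% of all genes called).

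In further lists the calls, or their balance, depended on the scaling. Sterol and fatty acid synthesis had 6 lower of 27, with a median of -0.28, and after quantile normalization was repeated 1, Pmvk of the mevalonate pathway. S phase and mitosis had 5 lower of 35 and 2 afterwards, Ccne2, a cyclin of S phase entry, and Rrm2, a subunit of ribonucleotide reductase. The 39 TGF-β and BMP genes had 2 lower, the 33 EGF and IGF genes 3 and the 19 cell cycle inhibitors and cyclins D 1, and none of these 3 lists had a call afterwards. The 31 apoptosis and survival genes had 3 lower, Bid (-0.97), Bak1 (-0.81) and Birc2 (-0.68), and afterwards 1 each way, with Bak1 and Birc2 lost. Other Bid probe sets differed by 0.14 and 0.07 and were not called. The 30 sphingolipid genes had 3 lower and 1 higher, but 1 lower and 2 higher afterwards: the receptor S1pr3 (-1.08) and Ugcg were called both times, and Sgpp1 (-0.55) and Sptlc1 (-0.49) were lost. The 32 cyclic nucleotide genes likewise had 3 lower and 1 higher, but 1 lower and 2 higher afterwards. Adcy7 (-0.57) and Rgs2 were lost, each in the probe set used for the gene. The 33 contractile genes had Ccn1 and Ccn2 lower and afterwards also 1 gene higher, and the 26 adipogenic genes had Adipor2 (0.43) higher and Cebpd lower under both scalings. None of the 33 hypoxia and glycolysis genes was called at an adjusted p under 0.05, the largest difference being 0.56 for Adm, and of the 11 Runx and partner genes Runx1 was. Many list members share pathways and cells, so their calls are not independent of each other.

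**Figure D4:**
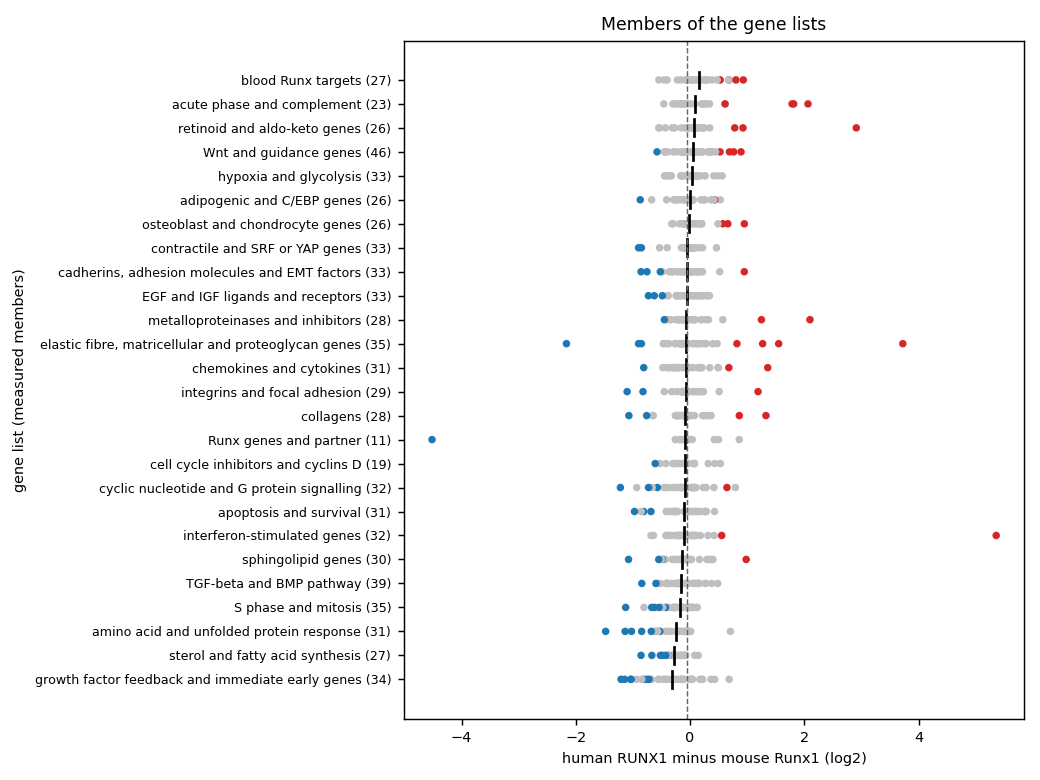
Log2 difference, human RUNX1 minus mouse Runx1, of each measured member of the 26 lists, 1 point per gene, red where called higher, blue where called lower and grey otherwise, with the list's median as a black tick and the median of all genes as a dashed line. The growth factor feedback list has 7 blue points and no red one, and the acute phase list 4 red and no blue.

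A further question was how the lines compare on genes that changed with RUNX proteins in the other groups. Induced RUNX1-ER was set against uninduced RUNX1-ER without subtracting the change that 4-OHT made in vector cells. The Runx2 and Runx3 lines, whose treatment the labels do not give, were set against vector with 4-OHT. The part of 4-OHT itself in the choice was not tested. The groups compared to choose these genes did not include the human RUNX1, the mouse Runx1 or the untreated vector arrays, although the spread used in choosing came from the fit over all 15 arrays. Of 349 genes changed by RUNX1-ER induction, 276 (79.1%) differed in the induction's direction between human RUNX1 and mouse Runx1, 74 were called in that direction and 8 in the opposite one, and the median difference in that direction was 0.25. Relative to vector the medians were 0.415 with human RUNX1 and 0.156 with mouse Runx1. The share called was 23.5%, against 3.99% of all genes. The 183 genes raised by induction (1.01% of all genes, of 1.92% called either way) had a median of 0.20 and the 166 lowered (0.912%) 0.30. With quantile normalization repeated the median over the 368 genes chosen then was 0.24, with 68 calls in the direction and 2 opposite. The 181 raised genes then had a median of 0.285 and the 187 lowered 0.202, so the order of raised and lowered genes depends on the scaling.

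Single genes varied. Snai1, a zinc finger factor of epithelial-mesenchymal transition raised by induction, read 7.36 with human RUNX1, against 6.41 and 6.40 with mouse Runx1 (difference 0.95, limma adjusted p = 0.0492). Mrgprf, a G protein-coupled receptor lowered by induction, read 5.83, against 6.86 and 7.05 (difference -1.12, adjusted p = 0.00322). Car9, a carbonic anhydrase also lowered, differed by -0.16 (adjusted p = 0.832). Tgm2, a transglutaminase lowered by induction, was 8.02 with human RUNX1 and 8.24 and 8.21 with mouse Runx1, against 7.31 and 7.12 with vector, so both lines had it above vector, opposite to the induction. Dusp1 differed by -0.80 (adjusted p = 0.0138) and Pde8a, a cyclic AMP phosphodiesterase raised by induction, by 0.71 (adjusted p = 0.0103). Anxa8, an annexin, read 6.54 with human RUNX1 and 5.98 and 5.83 with mouse Runx1 (difference 0.63, adjusted p = 0.13). A second Anxa8 probe set read 6.53, against 5.68 and 5.73, and its difference of 0.82 was called over probe sets. Nr4a2 differed by 0.21 and Ier3 by 0.17, with adjusted p of 0.713 and 0.821.

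Genes chosen by the Runx2 and Runx3 lines gave a smaller difference. Of 1523 genes (8.37%) that differed between the mean of the Runx2 and Runx3 lines and vector with 4-OHT, 893 (58.6%) went the same way in human RUNX1 minus mouse Runx1, with a median of 0.06, and 151 were called in that direction and 43 opposite, or 12.7%. The 693 lowered genes (3.81% of all genes) had a median of 0.19, with 100 calls in that direction and 5 opposite. Over the 787 lowered genes chosen with quantile normalization repeated the median was 0.098, with 57 calls and 10 opposite, so its size depends on the scaling. At the scaling as deposited, 39.4% of all genes had a positive difference between the lines. For the 830 raised genes (4.56%) the median was -0.04 and turned to 0.05 over the 778 genes chosen with quantile normalization repeated, so its sign depends on the scaling. Among the genes chosen this way, Ackr3, a scavenging receptor of the chemokine CXCL12, differed by -0.24 (limma adjusted p = 0.44). Relative to single lines, the human RUNX1 line had 492 calls (2.7%) against Runx2 and 1366 (7.51%) against Runx3, and 1490 (8.19%) against induced RUNX1-ER. These 3 comparisons were added after the data were seen. With quantile normalization repeated the counts were 480 against mouse Runx1, 502 against Runx2, 1255 against Runx3 and 1120 against induced RUNX1-ER, so that the order of mouse Runx1 and Runx2 in these counts depends on the scaling.

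**Figure D5:**
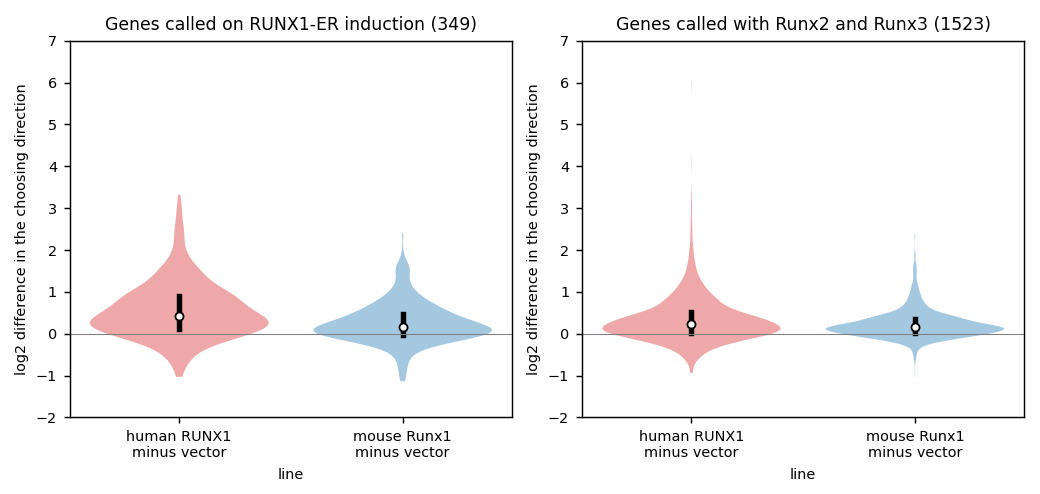
Distribution over genes of the log2 difference from vector, turned to the direction in which each gene was chosen, with human RUNX1 at left and mouse Runx1 at right in each panel, the quartiles as a thick bar and the median as a white point. For RUNX1-ER induction genes the median is 0.415 with human RUNX1 and 0.156 with mouse Runx1.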

How the data were processed

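Expression was measured on 15 Affymetrix arrays. Per the labels' protocols, the authors labelled 6 µg of RNA, scanned with GCOS and deposited log2 values summarised by RMA (Bioconductor affy, FunAlyse pipeline). For versions and the probe-set definition the sources used here give nothing. Because RMA equalises distributions and shrinks dim probe sets, folds from low levels are understated. Of 45101 probe sets, 34945 had 1 symbol in the platform annotation, 932 several and 9160 none, and 64 were controls. The brightest probe set stood for each of 18193 genes. No array was identical to another. Groups came from sample titles.

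limma 3.58.1 in R 4.3.3 (lmFit, eBayes) was fitted with 1 coefficient for each of 8 groups over all 15 arrays (7 residual and 5.65 prior degrees of freedom), with two-sided p-values adjusted by Benjamini-Hochberg over genes and a threshold of 0.05. How few arrays there are limits the precision. The test was also run on simulated data, in which all arrays had the same spread for a gene. That run cannot check the assumption made for the single human RUNX1 array, nor the scaling of the arrays. Replicate numbers did not pair arrays: of 21 pairs of same-numbered arrays, correlations of deviations ran from -0.12 to 0.12, with 1 above 0.1, and the human RUNX1 array has no number. Named genes were the 12 largest calls each way by log2 difference and the 8 largest each way against vector. Up to 4 called members of a list were also named, and up to 6 genes each way chosen in the other groups. The members, lists and comparisons were chosen with earlier results of these data known. Alternatives were the probe set rule, a filter on dim genes, the spread estimate, the groups fitted, repeated quantile normalization, another control and leaving out each replicated array.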

Additional observations from a re-analysis of the deposited data

Results flagged for a closer look

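Glipr1 was lower than vector with human RUNX1 (-0.89) and higher than vector with mouse Runx1 (1.63), each past the threshold, and the difference between the lines was itself tested and was -2.52 (limma adjusted p = 5.01e-07), while another Glipr1 probe set differed by -0.41 and was not called. It was the only gene of the 18193 tested with calls of opposite sign against vector and a called difference. No group held 4 or more arrays, so no array could be checked for standing apart within its group.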

How the results depend on the processing

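Of the 24 named genes, 22 were called in every setting in which they were tested and none changed sign. Znrf2 was lost with the mean of its probe sets (-0.31) and Ada without mouse Runx1 replicate 2 (-0.99). For human RUNX1 against mouse Runx1, repeated quantile normalization gave 480 calls in place of 726, and leaving out 1 array at a time gave 258 to 841. Against vector, leaving out arrays gave 524 to 1404 for human RUNX1 (524 without vector replicate 1, 781 without vector replicate 2) and 143 to 321 for mouse Runx1 (143 without either vector array, 176 and 158 without Runx1 replicate 1 and 2). Mouse Runx1 against vector had 541 calls with an intensity trend and 511 against the 4-OHT vector. With the replicate number as a block, for numbers that do not pair the arrays, the counts were 668, 1278 and 311. Among genes with a mean above 5 log2 units, 800 were called, 12.4% of them higher, and the median difference was -0.10. The median for RUNX1-ER induction genes was 0.353 at a threshold of 0.01, 0.22 with the mean of probe sets and 0.24 with repeated quantile normalization, and for Runx2 and Runx3 genes 0.141, 0.0446 and 0.0708. With the mean of probe sets, differences shrank over 1.5 times but stayed called for Tnc (1.86), Cyp1b1 (1.05), Elmo1 (0.63), Runx1 (-1.29), Glipr1 (-1.47), Tuba4a (-0.73), Mospd2 (-0.75), Tnfrsf1b (-0.70) and Lin54 (-0.60). Quantile normalization of these sets and of the lists was chosen after seeing the data. The causes were not tested.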

Other observations

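Esr1, the oestrogen receptor, read 4.72 log2 units with human RUNX1 and 3.95 and 3.76 with mouse Runx1, against 3.86 and 4.26 with vector (difference between the lines 0.86, limma adjusted p = 0.142). The RUNX1-ER arrays had 5.92 and 5.74 induced and 7.02 and 6.01 uninduced, all above the human RUNX1 array. Another Esr1 probe set, close to the floor, read 3.74 with human RUNX1, against 3.14 and 3.17 with mouse Runx1. Its difference of 0.59 was called over probe sets, and there every RUNX1-ER array lay below the human RUNX1 array. A further Esr1 probe set differed by -0.10 and was not called. Krt8, a keratin of simple epithelia, was the only epithelial marker called, higher with human RUNX1 by 1.22.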
